A study of Mus musculus with 12 samples.

Results

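The T cell receptor gene segments are the pieces of DNA from which T cells assemble their antigen receptors. They were taken here as every gene whose biotype in the deposited table is a constant, variable, diversity or joining segment and whose symbol begins with Tra, Trb, Trg, Trd or Tcr. There were 163 such segments among 19547 genes: 92 variable (V), 63 joining (J), 7 constant (C) and 1 diversity (D) segment. By locus, 115 belong to the alpha chain (Tra), 34 to the beta chain (Trb), 9 to the gamma chain (Trg) and 5 to the delta chain (Trd). Both the alpha and the delta segments lie on chromosome 14, the beta segments on chromosome 6 and the gamma segments on chromosome 13.

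RNA was sequenced from fat grafts at 8 weeks in wild-type C57BL/6 mice aged 16 weeks, in 3 groups of 4 libraries: control grafts (control), grafts with added ASC (adipose-derived stem cells; CAL, for cell-assisted lipotransfer) and grafts with ASC and inhibition of the Notch ligand Dll4 (CAL_Dll4i). Neither the agent that inhibited Dll4 nor the source of the ASC is given in the labels, and they do not say whether each library came from its own animal. The p-values therefore measure only the spread between these libraries, which may be technical. Libraries were made from total RNA with a SureSelect kit, which enriches RNA by hybrid capture, so levels of different segments may also reflect how well each was captured.

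A T cell joins 1 V, 1 J and, for the beta and delta chains, 1 or more D segments by recombination in the thymus, and splices the joined exon to a constant region. Most T cells carry an alpha and a beta chain, and a smaller set carries a gamma and a delta chain instead. All of these receptors reach the cell surface with the CD3 chains. Fat tissue is known to hold CD8 and CD4 T cells, regulatory T cells, gamma delta T cells and invariant natural killer T cells. An expanded clone can raise the V and J segments of its own receptor. Whether all reads of V and J segments here come from segments joined into a receptor was not tested.

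Total counts ran from 55883051 to 70804141 per library, and the segments took 7137 to 20479 of them, or 0.0112% to 0.0328%. Of the 163 segments, 155 passed the filter on low counts. The 8 that did not were Trav4d-3, Trav4n-3, Traj58, Traj53, Traj52, Traj46, Traj44 and Trbd1. Levels are given as CPM, the count scaled to library size with TMM factors, and as the authors' FPKM, which divides by length, wherever different segments are compared. Skeletal muscle genes stood apart in 3 libraries: 3 of the 6 listed markers were measured, and their summed level was 84.6 CPM in CAL replicate 1, 169 in CAL replicate 2 and 316 in CAL_Dll4i replicate 3, against 1.21 to 8.62 in the other 9. Lymph node markers, 10 of 10 measured, summed to 252, 258 and 286 CPM in CAL replicate 1, control replicate 4 and CAL_Dll4i replicate 3, and to 73.5 to 186 elsewhere. In bulk RNA, fewer T cells and less receptor RNA per T cell cannot be told apart.

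Summed over all segments, the receptor RNA of a graft varied more within the control and CAL_Dll4i groups than between the groups. The controls held 323, 215, 127 and 287 CPM in replicates 1 to 4 (238 ± 86.8, SD, n = 4). CAL grafts held 241, 187, 223 and 252 CPM (226 ± 28.6), and CAL_Dll4i grafts 193, 112, 274 and 180 (190 ± 66.2). The highest control library had 2.55 times the lowest, the highest CAL_Dll4i library 2.44 times the lowest, and the highest CAL library 1.35 times the lowest. Control replicate 3 and CAL_Dll4i replicate 2 were the 2 lowest of the 12, and the 3 groups overlapped.

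Every mature receptor transcript ends in a constant region, and these are described first. Trac, the constant region of the alpha chain (chr14:54220521-54224198, GRCm38), was at 54.1, 36.7, 23.2 and 47.6 CPM in the controls, at 38.7, 34.8, 39.1 and 40.8 in CAL and at 35.4, 15.9, 47.0 and 28.8 in CAL_Dll4i. All 4 CAL libraries lay inside the range of the controls. Its log2 fold change was -0.07 ± 0.31 (SE) for CAL against control, -0.27 ± 0.31 for CAL_Dll4i against CAL and -0.35 ± 0.31 for CAL_Dll4i against control, with adjusted p = 0.939, 0.872 and 0.826 by the quasi-likelihood test of edgeR, adjusted over 18551 genes by the Benjamini-Hochberg method.

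The beta chain has a pair of constant regions that each follow their own cluster of D and J segments. Trbc2 (chr6:41546730-41548181) held 41.3, 29.0, 18.8 and 40.2 CPM in the controls, 33.9, 26.0, 33.2 and 31.2 in CAL, and 25.7, 14.7, 42.2 and 25.9 in CAL_Dll4i. Trbc1 (chr6:41538219-41539665) was lower, at 12.7 ± 4.42, 10.1 ± 1.50 and 8.75 ± 3.63 CPM (SD, n = 4 each). In counts Trbc2 was below Trac in all 12 libraries, at 72.6 to 92.6 for every 100 Trac counts. Per length Trbc2 was above Trac and Trbc1 below both, with a mean over the 12 libraries of 45.6 FPKM for Trbc2, 31.2 for Trac and 16.0 for Trbc1. Their GENCODE transcripts share 82.6% of aligned bases, so reads that fall in shared stretches could be split between them. For every 100 Trbc2 counts a library had 28.8 to 42.3 Trbc1 counts, and the groups overlapped.

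**Figure D1:**
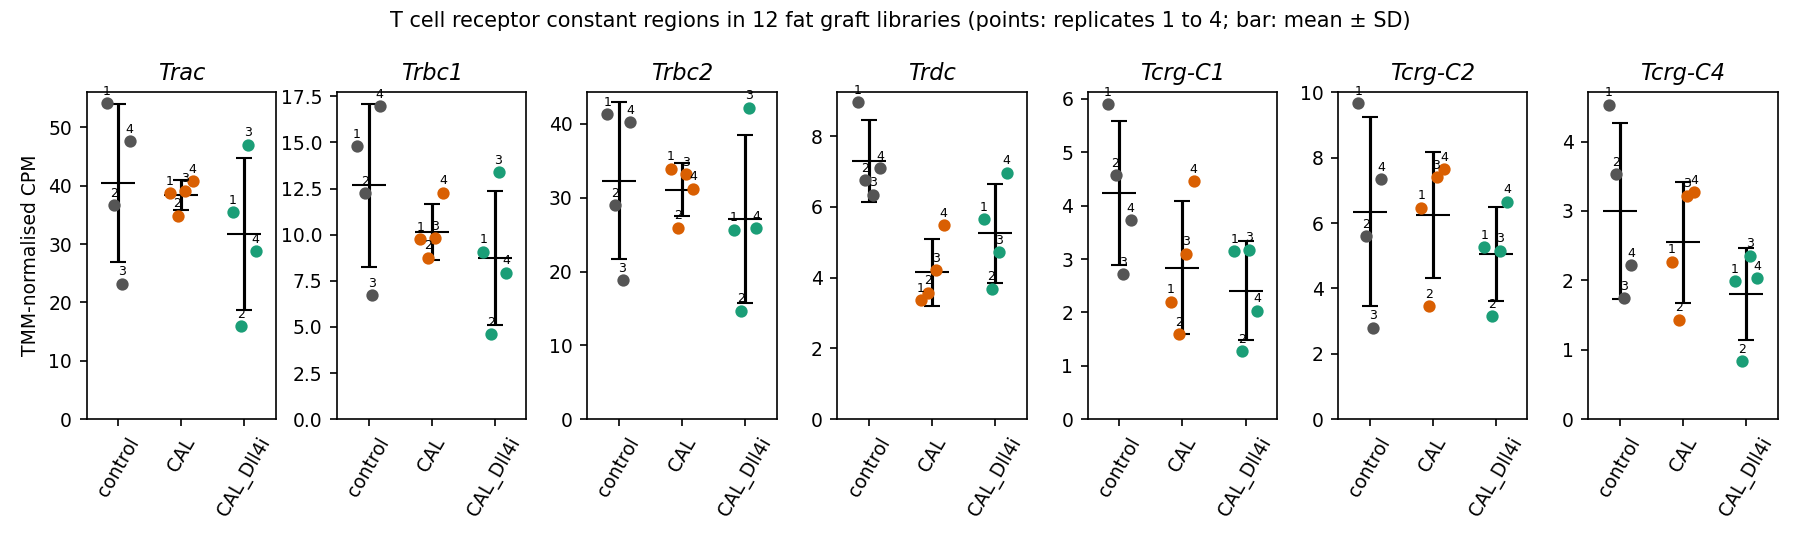
Level of the 7 constant regions (TMM-normalised CPM, linear axis from 0) in each of 12 fat graft libraries; points are libraries with their replicate number, the horizontal bar is the mean and the whisker the SD (n = 4). Trdc is the only one whose CAL libraries (3.36 to 5.47) all lie below the controls (6.35 to 8.96), as held for 3.75% of all tested genes.

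Of the constant regions, Trdc had the lowest p in CAL against control. Trdc, the delta constant region (chr14:54142851-54146108, inside the alpha locus), was at 8.96, 6.76, 6.35 and 7.10 CPM in the controls, at 3.36, 3.57, 4.21 and 5.47 in CAL and at 5.64, 3.69, 4.73 and 6.96 in CAL_Dll4i. Every CAL library was below every control library, while CAL_Dll4i overlapped both. Of all tested genes, 3.75% were lower in CAL without overlap in this way, against 1.29% of the 155 tested segments. The log2 fold change was -0.81 ± 0.21 for CAL against control (unadjusted p = 0.00220, adjusted p = 0.166, edgeR's quasi-likelihood test), 0.34 ± 0.21 for CAL_Dll4i against CAL (adjusted p = 0.749) and -0.47 ± 0.21 for CAL_Dll4i against control (adjusted p = 0.714). It thus did not pass the threshold of 0.05 in any comparison.

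Trdc was the single segment that DESeq2 called, in CAL against control, with a log2 fold change of -0.81 and an adjusted p of 0.0158. DESeq2 gave an adjusted p to 120 of the 163 segments there, and the 1 called is 0.833% of these 120. It called 1.99% of all genes higher and 1.62% lower. It called no segment in the other 2 comparisons, with 0% and 0.287% of all genes higher and 0.0054% and 0.0631% lower in CAL_Dll4i against CAL and against control. Its adjusted p was 0.102 with voom and sample weights. Leaving out 1 library at a time in edgeR gave log2 fold changes of -0.97 to -0.70 and adjusted p of 0.143 to 0.378. Without the 3 libraries with muscle RNA the value in edgeR was -0.59 ± 0.26 (adjusted p = 0.523).

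The level of Trdc was also set against the alpha chain. For every 100 Trac counts the controls had 16.5, 18.4, 27.3 and 14.9 Trdc counts, CAL had 8.67, 10.3, 10.8 and 13.4, and CAL_Dll4i had 15.9, 23.2, 10.05 and 24.2. The CAL and control libraries did not overlap in this ratio, and CAL_Dll4i replicate 3 lay among the CAL libraries. Natural killer and innate lymphoid markers, 11 of 11 measured, summed to 212 to 289 CPM in the controls, 178 to 282 in CAL and 188 to 221 in CAL_Dll4i, and 8 of the 11 had a lower estimate in CAL than in control with none called. Ncr1, a natural killer cell receptor and the first of these markers, had 8.19 to 15.1 CPM in the controls and 5.69 to 17.8 in CAL. Adipocyte markers, 6 of 6 measured, summed to 464 to 908 CPM in the controls, 889 to 1208 in CAL and 721 to 899 in CAL_Dll4i. All 6 had a higher estimate in CAL than in control (median log2 fold change 0.81, 5 at an unadjusted p under 0.05) and a lower one in CAL_Dll4i than in CAL (median -0.67, 1 at an unadjusted p under 0.05), with none called by edgeR, DESeq2 or voom. The part of either marker list in the Trdc values was not tested.

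The other delta segments are few and low. Trdj1, a joining segment of the delta chain, had 0.456, 0.417, 0.555 and 0.365 CPM in the controls, 0.155, 0.287, 0.266 and 0.228 in CAL and 0.347, 0.362, 0.206 and 0.397 in CAL_Dll4i. As with Trdc and 3.75% of all tested genes, all CAL libraries were below all controls (log2 fold change -0.93 ± 0.26, edgeR adjusted p = 0.187). Trdj2 gave -0.45 ± 0.36 and overlapped between the groups. The V segments Trdv4 and Trdv5 gave -0.31 ± 0.36 and -0.52 ± 0.43 in the same comparison, so 5 of 5 delta segments had a lower estimate in CAL than in control, with none called by edgeR and Trdc alone by DESeq2 (Trdv4 stood at 0.18 without the 3 libraries with muscle RNA). These segments are spliced into the same transcripts as Trdc and are not separate evidence of the difference.

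In the 2 delta joining segments below, capitals mark the bases that encode the phenylalanine-glycine motif of joining segments. Both segments are shown because they are spliced into the same transcripts as Trdc, though only Trdj1 did not overlap between CAL and control. Both were read from GENCODE transcripts of GRCm38, 5′ to 3′, Trdj1 at chr14:54123138-54123188 and Trdj2 at chr14:54136779-54136837, plus strand.
Trdj1: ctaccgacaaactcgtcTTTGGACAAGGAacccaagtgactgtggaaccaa
Trdj2: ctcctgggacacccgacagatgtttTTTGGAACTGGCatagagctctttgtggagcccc

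The gamma chain pairs with the delta chain at the cell surface, and its locus holds several short clusters that each end in a constant region. Tcrg-C1 (chr13:19214103-19216618) had 5.90, 4.57, 2.72 and 3.73 CPM in the controls, 2.20, 1.60, 3.10 and 4.46 in CAL and 3.15, 1.28, 3.18 and 2.03 in CAL_Dll4i. The groups overlapped, and the log2 fold change was -0.57 ± 0.36 for CAL against control and -0.81 ± 0.37 for CAL_Dll4i against control (edgeR adjusted p = 0.492 and 0.714). Tcrg-C2 was the highest of the 3, at 6.35 ± 2.89 (control), 6.25 ± 1.92 (CAL) and 5.06 ± 1.44 CPM (CAL_Dll4i), and at a mean of 9.18 FPKM. Tcrg-C4 had 3.00 ± 1.27, 2.55 ± 0.872 and 1.80 ± 0.666 CPM. The transcripts of Tcrg-C1 and Tcrg-C2 share 94.08% of their aligned bases, so their reads could be exchanged.

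The gamma constant regions moved with Trac across the 12 libraries. On log2 CPM, Pearson's r with Trac was 0.739 for Tcrg-C1, 0.765 for Tcrg-C2 and 0.802 for Tcrg-C4 (Spearman's rho 0.776, 0.734 and 0.769, permutation p = 0.00481, 0.00341 and 0.00229 for r, adjusted 0.00722, 0.00585 and 0.00458 over 12 relations). Without control replicate 3 and CAL_Dll4i replicate 2, the libraries farthest from the median of Trac, r was 0.673, 0.473 and 0.532, so the size of the last 2 relations rests on those libraries. For Trdc r was 0.335 (rho 0.329, adjusted permutation p = 0.321 for r), 0.283 without the same libraries and 0.509 with the group means removed. With the group means removed the 3 gamma regions gave 0.770, 0.752 and 0.772. Whether these relations differ from that of Trdc was not tested.

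The gamma V segments differed in how closely they kept to a constant region. Trgv2, at a mean of 9.37 FPKM, had 80.3 to 121 counts for every 100 Tcrg-C2 counts, with the groups overlapping. Tcrg-V4 had 27.1 to 48.9 counts for every 100 Tcrg-C1 counts. Tcrg-V1 had 37.2 to 71.0 for every 100 Tcrg-C4 counts in 11 libraries and 120.8 in CAL_Dll4i replicate 2. Tcrg-V4 had 2.32, 2.17, 0.735 and 1.82 CPM in the controls, 0.706, 0.682, 1.11 and 1.41 in CAL, and 1.19, 0.614, 1.03 and 0.795 in CAL_Dll4i. Control replicate 3 lay among the grafts with ASC, and the other 3 controls above all of them. The log2 fold change of Tcrg-V4 was -0.84 ± 0.36 for CAL against control and -0.95 ± 0.36 for CAL_Dll4i against control (edgeR adjusted p = 0.314 and 0.714). Tcrg-V1 gave -0.49 ± 0.31 and -0.40 ± 0.30.

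Of the gamma joining segments, Trgj1 and Trgj2 are shown because they differ at only 4 of 60 bases (A8G, T11C, T38A and T59C, Trgj1 base first, positions from 1 at the 5′ end), and Trgj4 because it is the more distant one. Capitals mark the joining motif. In these 3 its second codon is that of alanine and not glycine.
Trgj1: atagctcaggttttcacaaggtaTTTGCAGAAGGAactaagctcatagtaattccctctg
Trgj2: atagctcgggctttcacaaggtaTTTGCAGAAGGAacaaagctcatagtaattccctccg
Trgj4: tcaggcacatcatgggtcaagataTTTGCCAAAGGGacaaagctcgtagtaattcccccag
Trgj1 lies at chr13:19210343-19210402 (plus strand), Trgj2 at chr13:19311245-19311304 (minus strand) and Trgj4 at chr13:19342152-19342212 (plus strand), GRCm38, read from GENCODE transcripts. Trgj2 had a mean of 6.73 FPKM, Trgj4 5.89 and Trgj1 2.62. In CPM Trgj2 had 0.550 ± 0.183 in control, 0.608 ± 0.122 in CAL and 0.405 ± 0.0932 in CAL_Dll4i, with no call and overlapping groups.

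Together the gamma and delta constant regions took 20.9%, 20.8%, 21.8% and 16.3% of the constant-region counts in the controls, 14.8%, 12.7%, 17.9% and 19.8% in CAL and 18.6%, 20.3%, 13.1% and 22.0% in CAL_Dll4i. The 95% Wilson intervals, which cover counting error only, were for example 15.5 to 17.1% for control replicate 4, 20.6 to 23.1% for control replicate 3, 11.7 to 13.7% for CAL replicate 2 and 18.9 to 20.8% for CAL replicate 4, so the spread within a group was wider than counting error. The 3 libraries with muscle RNA, CAL replicates 1 and 2 and CAL_Dll4i replicate 3, had the 3 lowest shares. CAL replicate 1 and CAL_Dll4i replicate 3 were also high in lymph node markers, as was control replicate 4, the lowest control in this share (16.3%). The part of muscle or lymph node RNA in the share was not tested.

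Across the libraries Trac moved with the beta constant regions and with Cd3e, the only CD3 chain set against it. T cells need the CD3 chains to bring any receptor to the surface. Against Trac on log2 CPM, r was 0.951 for Trbc1, 0.971 for Trbc2, 0.965 for Cd3e, 0.906 for Cd8a and 0.851 for Cd4 (rho 0.972, 0.930, 0.923, 0.846 and 0.881, adjusted permutation p = 6e-05, 8e-05, 6e-05, 0.0003 and 0.00084 for r, n = 12, with 100000 permutations and 1e-05 the smallest p they can give). Without control replicate 3 and CAL_Dll4i replicate 2 these were 0.879, 0.913, 0.932, 0.748 and 0.773. With the group means removed they were 0.965, 0.970, 0.970, 0.947 and 0.866. For the natural killer cell gene Ncr1 r was 0.375 (rho 0.462, adjusted permutation p = 0.272 for r).

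**Figure D2:**
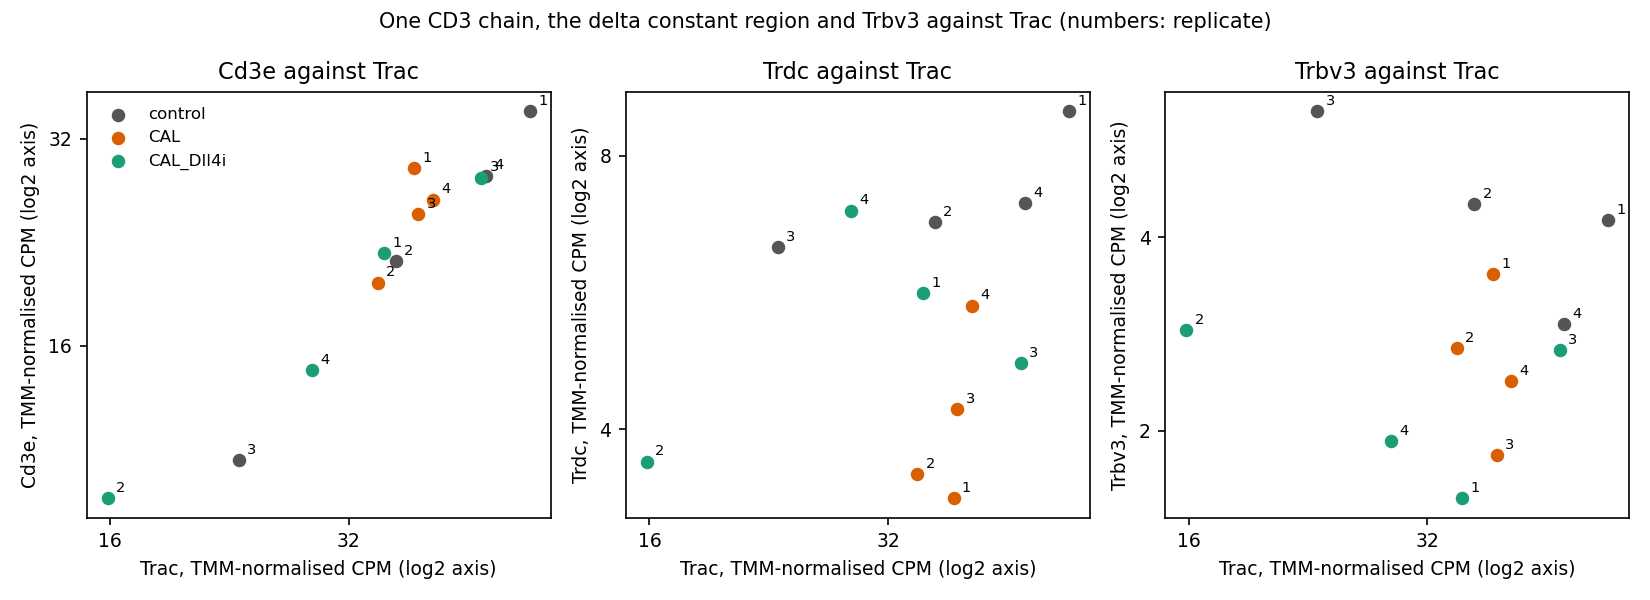
Cd3e, Trdc and Trbv3 (vertical axes, TMM-normalised CPM, log2 scale) against Trac (horizontal axis, same unit and scale) in 12 libraries, coloured by group and numbered by replicate. Cd3e lies along a line (r = 0.965), Trdc has the 4 CAL libraries low at middling Trac (r = 0.335), and Trbv3 is highest in control replicate 3, a library low in Trac (r = -0.0866).

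The variable segments differed from graft to graft. Among the 58 alpha V units, a unit being 1 segment or 2 segments with identical transcripts, 23 had a share of the alpha V counts in 1 library that was over 3 times the median of the other 11 libraries. The same held for 4 of the 18 beta V units. It held for none of 45 alpha J units and none of 13 beta J units. The median of this ratio was 2.64 for alpha V, 2.34 for beta V, 1.43 for alpha J and 1.41 for beta J. Low counts widen the ratio too, and V and J segments share the same cells, so the values are a description.

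The segments with the largest of these ratios, chosen after the values were seen, were spread over several libraries. Trav6d-3 had 244 counts in control replicate 1 and 8 to 24 in each of the other 11 libraries, 5.06% of the alpha V counts there (95% Wilson interval 4.47 to 5.71). Its near copy Trav6-3, which shares 346 bases with it, had 144 counts in that library and 11 to 45 elsewhere, so reads of 1 receptor may have been split between them. Trav7-6 had 170 counts in CAL_Dll4i replicate 1 and 10 to 43 elsewhere, and Trav8-1 had 244 there and 10 to 103 elsewhere. Trav12-1 had 208 counts in CAL replicate 4 and 10 to 124 elsewhere. Trav7n-6 had 123 in CAL_Dll4i replicate 3 and 9 to 42 elsewhere. No unit of this kind was counted for CAL replicate 1, and the other libraries had 1 to 5 each.

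The alpha V segment of highest level also changed places between libraries. Trav16n (chr14:53351090-53351621) was first in control replicate 1, CAL replicate 1 and CAL replicate 4, and took 16.7% of the alpha V counts in the last of these (761 counts, 95% Wilson interval 15.7 to 17.8). Its CPM was 6.08, 3.32, 1.04 and 1.89 in the controls, 7.56, 2.26, 2.95 and 11.6 in CAL and 1.77, 1.34, 2.26 and 1.30 in CAL_Dll4i. Its transcript shares 96.67% of aligned bases with that of Trav16, so reads could be exchanged between these 2. Trav13-4-dv7, one of the segments that both alpha and delta chains can use, had the highest mean level at 9.16 FPKM and was first in 4 libraries. It varied less, with 3.93 ± 1.47 (control), 3.64 ± 0.443 (CAL) and 4.05 ± 0.825 CPM (CAL_Dll4i). The other 3 of the 5 highest by mean CPM, Trav7-4, Trav16 and Trav14n-3, had 5.92, 5.72 and 4.13 FPKM.

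Near-identical copies limit what can be said of single alpha V segments, because part of the alpha V cluster is repeated in the mouse genome. Among the 163 segments there were 11 pairs whose GENCODE transcripts are identical letter for letter. Trav13d-2 and Trav13n-2 are shown as an example. The sequence is that of both, at chr14:52942764-52943289 and chr14:53253792-53254317 (GRCm38, plus strand), where the exons join to 331 bases. The first 120 are printed.
Trav13d-2: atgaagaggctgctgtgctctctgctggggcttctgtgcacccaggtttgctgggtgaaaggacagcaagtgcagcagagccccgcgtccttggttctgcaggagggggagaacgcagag
Over the 12 libraries Trav13d-2 had 676 counts and Trav13n-2 had 677, and they differed by at most 2 counts in each of the 12. Other identical pairs were not counted alike: Trav6d-6 had 482 counts and Trav6-6 had 927, and Trav15n-2 had 273 against 142 for Trav15d-2-dv6d-2. The division of reads that fit both copies is not stated in the labels. The summed pair Trav13d-2 and Trav13n-2 took 13.5% of the alpha V counts in control replicate 3 (252 counts, 95% Wilson interval 12.003 to 15.1) against a median of 2.25% in the other 11 libraries.

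Among the beta V segments, Trbv3 (chr6:41048394-41048824) took the largest mean share of the counts. It had 4.26, 4.51, 6.29 and 2.93 CPM in the controls, 3.51, 2.69, 1.83 and 2.39 in CAL and 1.57, 2.87, 2.67 and 1.93 in CAL_Dll4i. All 4 controls were above all 4 CAL_Dll4i libraries, as held for 2.35% of all tested genes, and control replicate 4 lay within the range of CAL. The log2 fold change was -0.79 ± 0.27 for CAL against control (edgeR adjusted p = 0.230) and -0.99 ± 0.27 for CAL_Dll4i against control (unadjusted p = 0.00323, adjusted p = 0.654).

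Control replicate 3, a library low in Trac, had the highest Trbv3 of all. Trbv3 took 48.1% of the beta V counts there (419 of 871 counts, 95% Wilson interval 44.8 to 51.4), 24.5% in CAL_Dll4i replicate 2 (182 of 742, interval 21.6 to 27.8) and 8.04% to 21.9% in the other 10. For every 100 Trac counts there were 27.0 Trbv3 counts in control replicate 3, 18.04 in CAL_Dll4i replicate 2 and 4.43 to 12.3 elsewhere. Across the 12 libraries r between Trbv3 and Trac was -0.0866 (rho 0.00699, adjusted permutation p = 0.791 for r), and 0.483 without those 2 libraries. Whether reads in Trbv3 come from T cells was not tested.

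The other leading beta V segments were high in different grafts. Trbv4 had 403 counts in control replicate 1, or 21.2% of the beta V counts there (95% Wilson interval 19.4 to 23.1), 260 of 1294 in CAL_Dll4i replicate 1, and 22 in the library with the fewest. Trbv13-3 took 21.5% in CAL replicate 3 (interval 19.5 to 23.6) and at least 3.28% elsewhere. Trbv13-2, at a mean of 5.54 FPKM, had 2.35 ± 1.81 (control), 2.46 ± 0.867 (CAL) and 2.41 ± 0.827 CPM (CAL_Dll4i), with differences well inside the spread. The effective number of beta V segments, which is the number of equally used segments that would give the same Shannon diversity, was 7.88 in control replicate 3 and 12.3 to 15.5 in the other 11.

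**Figure D3:**
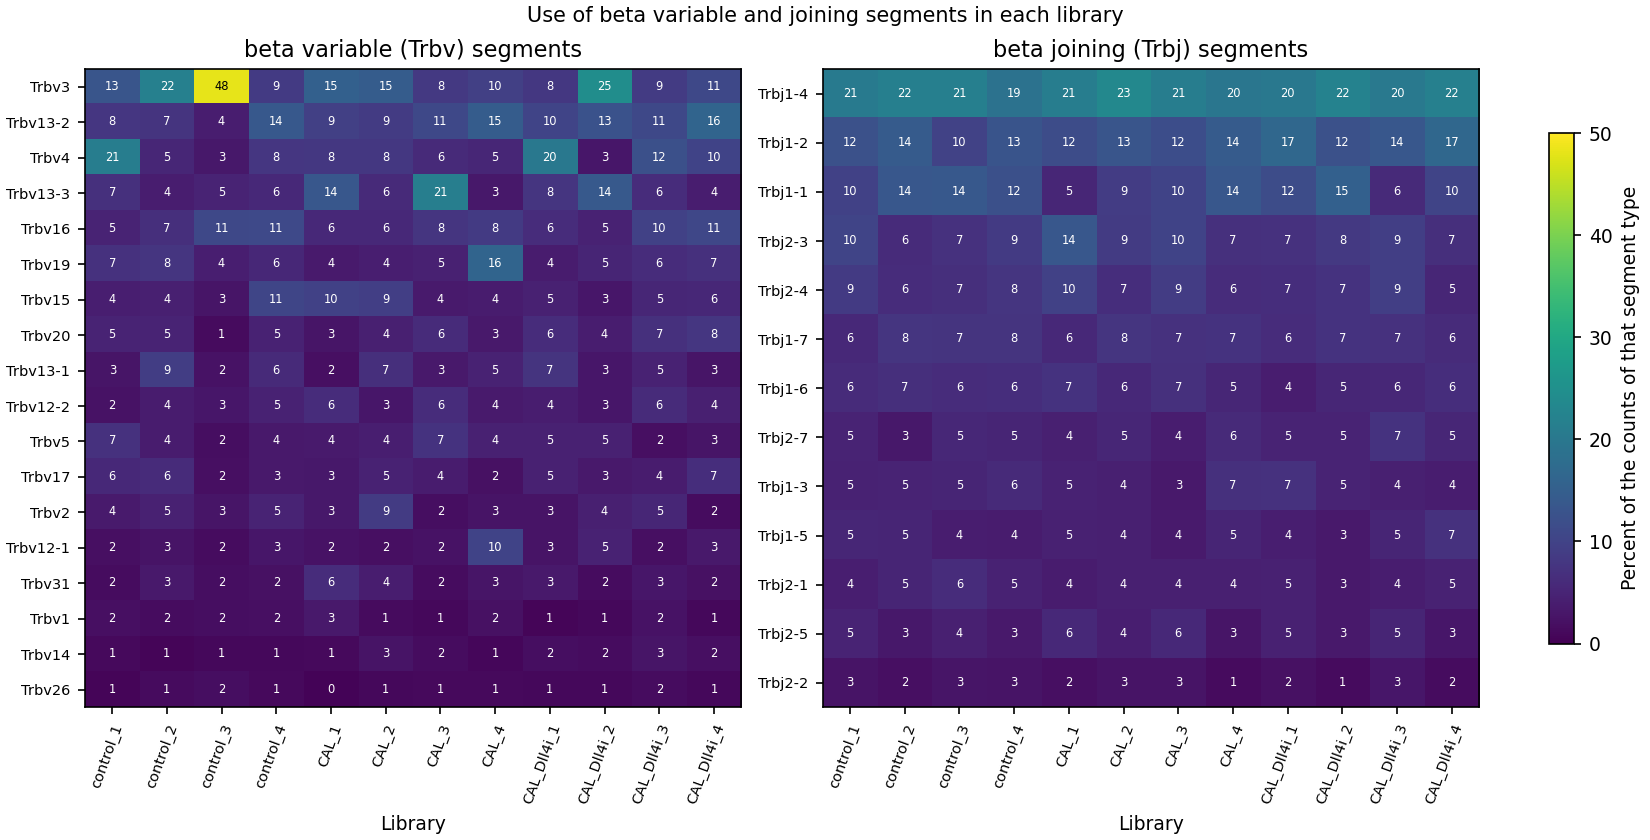
Share of the beta V counts taken by each of 18 V segments (left) and of the beta J counts taken by each of 13 J segments (right) in 12 libraries, in percent, on 1 colour scale from 0 to 50; the number in each cell is the rounded share. Trbv3 takes 48.1% in control replicate 3, other V segments are high in other libraries, and Trbj1-4 is first in all 12.

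The same joining segments led in every graft, while their shares varied. The highest share of a segment over the 12 libraries was a median of 1.98 times its lowest for alpha J and 2.02 times for beta J, against 4.89 for alpha V and 4.39 for beta V. Traj21 was the first of 45 alpha J segments in all 12 libraries, with 7.94% to 13.8% of the alpha J counts, and Traj22 was second in 11 of them. Trbj1-4 was first of 13 beta J segments in all 12 libraries, with 18.8% to 23.4%. The effective number of alpha J segments was 30.4 to 34.2 and that of beta J segments 10.3 to 11.3, with overlapping groups. Per length, Traj21 (41.5 FPKM), Traj22 (25.1) and Traj31 (19.6) had the highest levels of the alpha J segments, and Trbj1-4 (21.1), Trbj1-2 (14.3) and Trbj1-1 (11.1) those of the beta J segments. J transcripts are only 46 to 66 bases long, so their FPKM may not compare with that of longer segments. Traj21 stood above Trac, which had 31.2 FPKM.

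The leading joining segments are shown with the joining motif in capitals, since this motif is what the rule for membership did not use and most of them share. Traj21 lies at chr14:54198790-54198846, Traj22 at chr14:54197248-54197307, Traj31 at chr14:54187895-54187951, Trbj1-4 at chr6:41534811-41534861 and Trbj1-2 at chr6:41534001-41534048, all on the plus strand of GRCm38 and read from GENCODE transcripts.
Traj21: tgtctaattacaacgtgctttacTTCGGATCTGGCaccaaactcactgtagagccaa
Traj22: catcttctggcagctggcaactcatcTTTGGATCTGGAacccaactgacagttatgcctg
Traj31: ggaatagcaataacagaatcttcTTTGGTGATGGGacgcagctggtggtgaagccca
Trbj1-4: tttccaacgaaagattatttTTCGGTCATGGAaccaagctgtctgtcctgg
Trbj1-2: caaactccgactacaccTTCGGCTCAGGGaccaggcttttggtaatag
The motif searched, a TTN codon followed by GNN, any codon and GGN, was present on the sense strand in 56 of the 63 J segments and on the other strand in none. It was present on either strand in 7.668% of 60-base windows of protein-coding transcripts. The 7 without it were Traj41, Traj33, Traj29, Traj20, Traj19, Traj3 and Trbj1-7, and nothing follows from this for their use.

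Along the locus, the lowest alpha J segments lay near the V side. Traj58, Traj53, Traj52, Traj46 and Traj44, which failed the filter, and Traj56 were the 6 with the lowest mean FPKM, 0.551 to 1.31, and all lie among the 8 segments nearest the V side of the locus. Traj21, Traj22 and Traj31 lie nearer its constant region. The only D segment measured, Trbd1, is 12 bases long (gggacagggggc, chr6:41533201-41533212) and averaged 0.0452 CPM, at a length far below that of a read fragment.

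**Figure D4:**
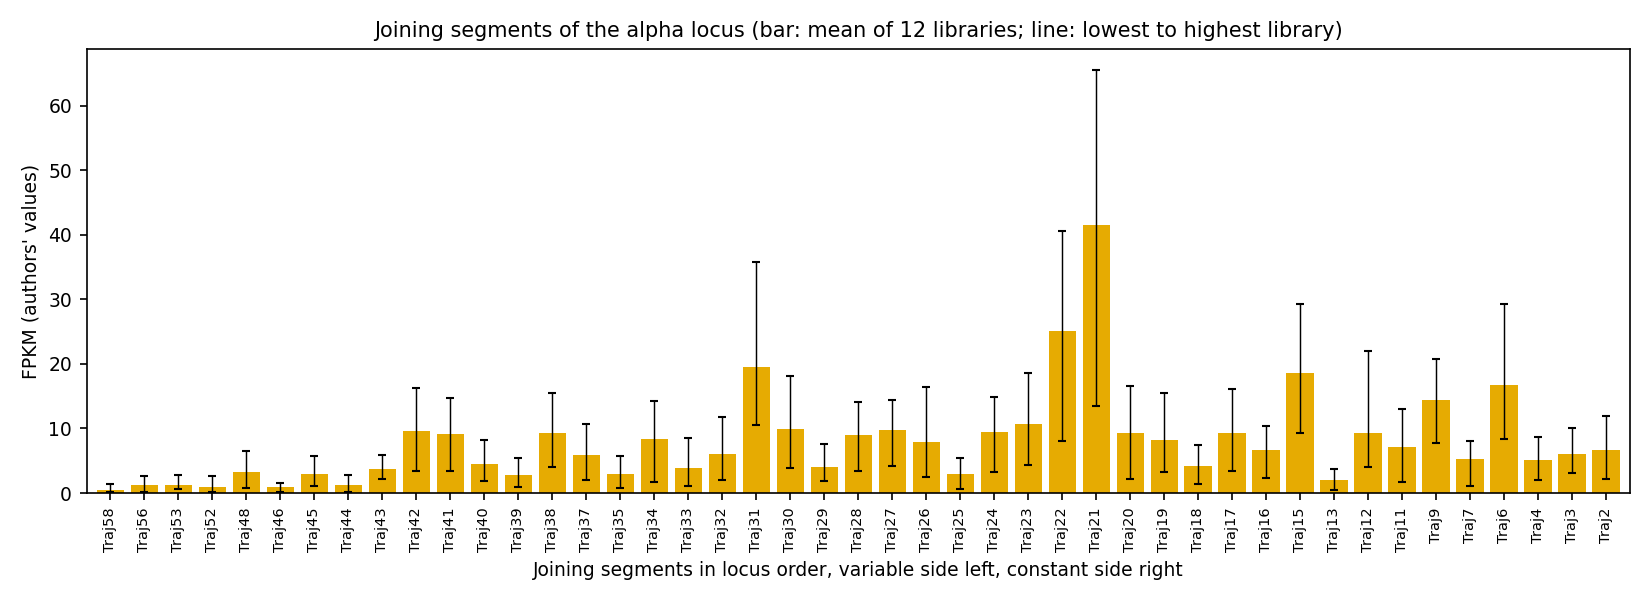
Level of the 45 measured alpha joining segments (the authors' FPKM, linear axis from 0) in their order along the locus, from the V side (left) to the constant side (right); bars are means of 12 libraries and lines run from the lowest to the highest library. The tallest bar is Traj21 (41.5) and the lowest is Traj58 (0.551).

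Some T cell subsets use fixed joining segments, and 2 of these were looked at for that reason and not by the rule for named genes. Traj18, the joining segment of the invariant natural killer T cell receptor, had 0.374 ± 0.206 (control), 0.442 ± 0.103 (CAL) and 0.258 ± 0.0734 CPM (CAL_Dll4i), and Traj33, used by mucosal-associated invariant T cells, 0.273 ± 0.134, 0.372 ± 0.166 and 0.224 ± 0.146. Neither was called, and many other T cells use both. Their partners Trav11 and Trav1 were not analysed here. Zbtb16, a transcription factor of invariant T cells that fat and other cells also express, had a log2 fold change of 0.81 ± 0.30 for CAL against control (edgeR adjusted p = 0.262).

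The share of J segments in all segment counts also differed between libraries. It was 22.1% in CAL replicate 1 (95% Wilson interval 21.4 to 22.8), 19.2% in CAL replicate 2 (18.4 to 19.9) and 17.2% in CAL_Dll4i replicate 3 (16.7 to 17.8), and 13.6% to 16.5% in the other 9 libraries. These 3 libraries are those with muscle RNA, whose part in the share was not tested. The controls averaged 15.2 ± 1.37%, CAL 18.3 ± 2.92% and CAL_Dll4i 15.4 ± 1.35%.

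For CAL against control, which asks what added ASC changed, edgeR called 0 of the 155 tested segments higher and 0 lower, where 0.00539% of all tested genes were called higher and 0% lower. At an unadjusted p under 0.05, 0 were higher and 5 lower (Trdc, Trdj1, Trbv3, Tcrg-V4 and Trav6d-3), where 7.01% of all genes were higher and 7.57% lower, and the 5 are 3.23% of the segments tested. Trdc and Trdj1 were the only segments whose groups did not overlap, both lower (1.29% of the segments tested), where 3.61% of all genes were higher and 3.75% lower in this way. Trav6d-3 rests on control replicate 1 (4.12 CPM there and 0.144 to 0.309 in the other controls). The median log2 fold change was -0.02 over the segments and -0.01 over all genes, with 73 of 155 estimates higher. The median of the segments ran from -0.26 without control replicate 3 to 0.15 without control replicate 4, and was also above 0 without control replicate 1 (0.13), CAL replicate 2 (0.07) or CAL replicate 3 (0.02). By kind it was -0.12 for V segments, 0.11 for J segments and -0.23 for C segments. By locus it was 0.05 for alpha, -0.05 for beta, -0.31 for gamma and -0.52 for delta.

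The segments of smallest p with a higher estimate in CAL were Trav16d-dv11 (log2 fold change 0.82 ± 0.49, adjusted p = 0.464), Trav16n (0.98 ± 0.59, 0.464) and Traj26 (0.76 ± 0.47, 0.476), all in edgeR's quasi-likelihood test and none past the threshold. Trav16n was highest in CAL replicates 1 and 4, and could exchange reads with Trav16d-dv11, with which it shares 82.93% of aligned bases. Without CAL replicate 4 it stood at 0.47 and Trav16d-dv11 at 0.39. Traj26 was highest in CAL replicate 1, at 1.24 CPM against 0.195 to 0.760 in the controls, and its log2 fold change was 0.48 without that library.

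For CAL_Dll4i against CAL, which asks what Dll4 inhibition changed in grafts with ASC, edgeR called 0 of 155 segments in either direction (0% of all genes higher and 0% lower). At an unadjusted p under 0.05, 2 were higher (Trav3-4 and Trav4-3, 1.29% against 4.47% of all genes) and 5 lower (Trav16n, Trav16d-dv11, Traj38, Traj39 and Traj41, 3.23% against 2.95%). Trav16n was lower in all 4 CAL_Dll4i libraries than in any CAL library (-1.87 ± 0.61, edgeR adjusted p = 0.659), and Trav4-3 higher (0.89 ± 0.34, edgeR adjusted p = 0.659), where 1.76% and 1.58% of all genes did so. The transcript of Trav16n shares 96.67% of aligned bases with Trav16 and 82.93% with Trav16d-dv11. Reads could thus be exchanged between them, and they are not separate evidence. Traj38 had 1.20, 0.772, 0.812 and 1.00 CPM in CAL and 0.423, 0.331, 0.822 and 0.383 in CAL_Dll4i, where replicate 3 lay within the CAL range (-0.95 ± 0.36, adjusted p = 0.659). Trav3-4 had 0.0539 to 0.103 CPM in CAL and 0.0905 to 0.252 in CAL_Dll4i (1.29 ± 0.37, adjusted p = 0.659). Trav8-1 followed with 1.50 ± 0.74 (adjusted p = 0.688) and rests on CAL_Dll4i replicate 1 (0.70 without it).

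In the same comparison the estimates leaned lower: 34 of 155 were higher, and the median log2 fold change was -0.33 against 0.00 over all genes. J segments had 2 of 58 estimates higher and a median of -0.46, V segments 31 of 90 and -0.17, and C segments 1 of 7 and -0.24, with Trdc the one higher. The median was -0.64 without CAL_Dll4i replicate 3, the graft of that group with the most receptor RNA, and -0.15 without CAL_Dll4i replicate 2, the one with the least. Segments come from the same T cells, so their estimates are not independent of each other.

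For CAL_Dll4i against control, edgeR again called 0 of 155 segments in either direction (0% of all genes higher and 0% lower). At an unadjusted p under 0.05, 0 were higher and 8 lower (Trbv3, Tcrg-V4, Trbj1-1, Trdc, Tcrg-C1, Trav6d-3, Trav14-1 and Traj43), where 3.86% of all genes were higher and 3.06% lower, and the 8 are 5.16% of the segments tested. Trbv3 alone did not overlap between the groups, where 2.35% of all genes were lower and 2.41% higher in this way. Trbj1-1 gave -0.70 ± 0.29 (adjusted p = 0.714). The smallest p with higher estimates belonged to Trav7n-6 (1.33 ± 0.73), Trbv14 (0.79 ± 0.47) and Trav4n-4 (0.87 ± 0.58), with adjusted p = 0.722, 0.737 and 0.765 in edgeR. Without CAL_Dll4i replicate 3, Trav7n-6 stood at 0.06 and Trbv14 at 0.27. Trav4n-4 stood at 0.53 without CAL_Dll4i replicate 1, at 0.55 without control replicate 3 and at 1.47 without control replicate 4. The median log2 fold change was -0.37 against -0.00 over all genes, with 27 of 155 estimates higher. The median of the segments was -0.65 without CAL_Dll4i replicate 3, -0.59 without control replicate 3, -0.20 without control replicate 4, -0.16 without control replicate 1 and -0.15 without CAL_Dll4i replicate 2. This comparison shares the controls with the first and the CAL_Dll4i libraries with the second, so its values are not independent of theirs.

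**Figure D5:**
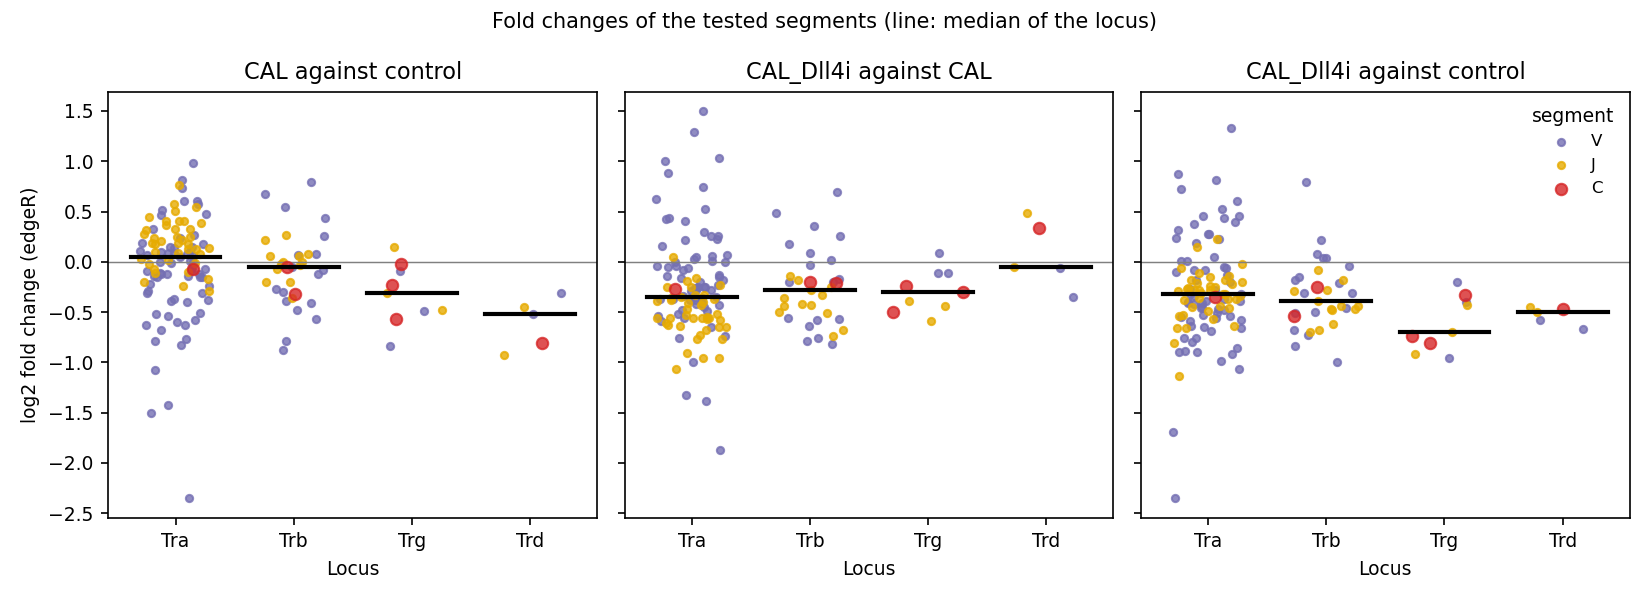
Log2 fold change (edgeR, vertical axis) of the 155 tested segments in the 3 comparisons, by locus (horizontal axis; V, J and C segments coloured, points spread sideways for legibility) with the median of each locus as a line. Medians for CAL against control run from 0.05 (Tra) to -0.52 (Trd), and most points lie below 0 in the comparisons with CAL_Dll4i.

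Genes that work with the receptor were also compared between the groups. Of the CD3 chains and co-receptors (Cd3d, Cd3e, Cd3g, Cd247, Cd4, Cd8a and Cd8b1), 7 of 7 were measured and edgeR, DESeq2 and voom called none in any comparison. Their summed level was 222, 144, 77.0 and 187 CPM in the controls, 174, 132, 173 and 177 in CAL and 136, 71.6, 187 and 110 in CAL_Dll4i. Control replicate 3 and CAL_Dll4i replicate 2 were the lowest, as they were for the segments. Of the 7 genes, 3 had a higher estimate in CAL against control, 1 in CAL_Dll4i against CAL and 0 in CAL_Dll4i against control. Of the receptor signalling genes 29 of 29 were measured, with none called by any of the 3 tools. A higher estimate was found for 11 of 29 in CAL against control and for 3 of 29 in CAL_Dll4i against control. In CAL_Dll4i against CAL 1 of 29 had a higher estimate (median -0.26 against 0.00 over all genes). Among these, Lck, the kinase that starts signalling, and Zap70, the kinase it activates, gave -0.33 and -0.44.

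Among factors of T cell subsets, 14 of 14 were measured and none was called. Foxp3, the factor of regulatory T cells, had 13.8 ± 2.91 (control), 13.4 ± 1.68 (CAL) and 11.4 ± 3.20 CPM (CAL_Dll4i). Sox13, a factor of gamma delta T cells that other tissues also express, had 6.73 ± 1.03, 6.10 ± 0.498 and 6.73 ± 0.405. Of the genes of receptor recombination and the thymic stage, Dntt was measured, at 0.517 to 3.03 CPM, and Rag1, Rag2 and Ptcra were not analysed here. B cell markers, 10 of 10 measured, summed to 210 to 476 CPM in the controls, 309 to 546 in CAL and 235 to 659 in CAL_Dll4i.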

How the data were processed

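Per the submitters' processing notes, reads were aligned with HISAT2 to mm10 and quantified with StringTie, without a stated version, strand setting or treatment of multiply mapped reads. The deposited table holds expected counts per gene, which are whole numbers here, with FPKM and TPM from the authors. The counts entered edgeR 4.0.16 as deposited (quasi-likelihood test, robust, TMM scaling, default filter on low counts, 1 coefficient per group over 12 libraries, Benjamini-Hochberg over 18551 genes, call at adjusted p under 0.05). FPKM was used for levels between segments. TPM as deposited was not used.

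The members and gene lists were chosen with earlier results of these data known. Segments were named by rule: all C and delta segments, the 5 V and 3 J of highest mean CPM per locus (delta counted with alpha), and the 3 of smallest p in each direction per comparison. Segments of outlying V use were added after their values were seen. Alternatives were RLE scaling, other filters, DESeq2 1.42.0, voom (limma 3.58.1), only the 2 groups compared, a replicate block and each library left out. On simulated counts for CAL against control (18482 genes), edgeR recovered 23.9%, 56.7% and 92.4% of genes changed 1.5-, 2- and 4-fold, with 4 false calls. Sequences came from GENCODE M21 transcripts and positions from RefSeq's GRCm38.p6 table, which holds all 163 segments. One of the relations with Trac that entered the adjustment is not reported here.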

Additional observations from a re-analysis of the deposited data

Results flagged for a closer look

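In groups of 4 libraries, a library was singled out where its gap to the nearest other was a larger part of the range of its group than Dixon's 95% critical value. Of 147 groups tested, 6 met this, no more than the share of about 1 group in 20 that chance alone singles out. Trav14n-3 stood at 4.62 CPM in CAL replicate 3 against 1.23 to 1.47 in the other CAL libraries, and at 2.12 CPM in CAL_Dll4i replicate 3 against 1.26 to 1.31. Trbv16 stood at 3.801 CPM in control replicate 4 against 1.40 to 1.61 in the other controls. Trav7n-6 stood at 1.94 CPM in CAL_Dll4i replicate 3 against 0.236 to 0.397. Traj21 stood at 4.66 CPM in CAL replicate 1 against 2.87 to 3.15. The effective number of beta J segments was 10.98 in CAL replicate 3 against 10.8 in each of the other CAL libraries. Of the 5 segment levels singled out, 4 belong to V segments. V segments were also the most numerous kind among the segment levels tested, and Trav7n-6 was among them for its small p. Nothing follows from this for V segments.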

How the results depend on the processing

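The count of called segments was 0 in all 3 comparisons under the alternatives run, except that DESeq2 called 1, Trdc, in CAL against control. Over all genes, edgeR called 1 in CAL against control, and the count was 616 with DESeq2, 88 with voom, 0 with only the 2 groups compared, 0 without the 3 libraries with muscle RNA (chosen after seeing the data) and 0 to 6 with 1 library left out. DESeq2 called 1 gene in CAL_Dll4i against CAL and 61 in CAL_Dll4i against control, where edgeR called 0. The median log2 fold change of the segments in CAL_Dll4i against CAL ran from -0.64 (without CAL_Dll4i replicate 3) to -0.15 with 1 library left out. It ran from -0.26 to 0.15 in CAL against control and from -0.65 to -0.15 in CAL_Dll4i against control. Without the 3 libraries with muscle RNA it was -0.03 in CAL against control, -0.60 in CAL_Dll4i against CAL and -0.65 in CAL_Dll4i against control.

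No reversed value below had passed a threshold. In CAL against control, with 1 library left out, Tcrg-C2 ran from -0.27 to 0.25, Tcrg-C4 from -0.42 to 0.034, Trac from -0.27 to 0.10 and Trbc2 from -0.24 to 0.083. Without the 3 libraries with muscle RNA, Tcrg-C2 stood at 0.24, Tcrg-C4 at 0.11 and Trdv4 at 0.18. In CAL_Dll4i against CAL, with 1 library left out, Trdv5 ran from -0.20 to 0.19, Trdj2 from -0.20 to 0.19, Tcrg-C1 from -0.43 to 0.064, Trdv4 from -0.59 to 0.061 and Trbc2 from -0.49 to 0.0020. The cause of these reversals was not tested.

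Replicate numbers did not pair the libraries: 2 of 12 same-number pairs correlated above 0.1 (-0.385 to 0.144). With the replicate number as a block the count of called segments was 0 in all 3 comparisons, and Trdc in CAL against control gave -0.83 (adjusted p = 0.211, edgeR). In the simulation, edgeR recovered 56.7% of 2-fold changes in CAL against control, in genes drawn at random from all that passed the filter. Recovery at the counts and spread of the segments was not measured, and a difference in a segment can be missed.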
